A study of Rattus norvegicus with 6 samples.

Results

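Cadherins, protocadherins and the neural adhesion molecules of the immunoglobulin superfamily were examined in cortical neurons of the rat. The cells came from day 18 embryos of Sprague-Dawley rats and had been in culture for 3 days in NB-N2. A set of 49 genes was chosen by family name: 14 cadherins, 9 non-clustered protocadherins, 7 large cadherins of the Celsr, Fat and Dchs families, 4 catenins, 4 members of the L1 family, 3 genes of the NCAM and ALCAM kind, and 8 contactins and contactin-associated proteins. Of these, 37 were named by a probe set that names exactly 1 gene, out of 14506 genes so named on the array. The other 12 (Cdh4, Cdh9, Cdh11, Cdh12, Cdh18, Pcdh9, Pcdh10, Pcdh19, Celsr1, Fat4, Chl1 and Cntnap2) are not analysed here. There were 3 Affymetrix arrays for neurons treated with C1q (10 nM, 3 h) and 3 for untreated neurons. C1q is the recognition component of the classical complement pathway, and the series title asks how it regulates neuronal transcripts in a setting of neuroprotection. The labels number the arrays 1 to 3 in each group and do not say whether these were separate cultures, so p-values reflect only how far these arrays differed, and that spread may be technical. The labels describe the cells as cortical neurons and give no selection step, and since whole cultures were measured, a difference in the number of cells of a type and a difference in RNA per cell cannot be told apart.

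Classic cadherins are transmembrane proteins that bind like partners on the next cell in the presence of calcium, and their cytoplasmic tails recruit catenins that tie the contact to actin. Protocadherins lack the catenin-binding tail and sort neurons and their processes by weaker contacts, while Celsr, Fat and Dchs proteins orient cells and axons in a plane. L1, NCAM and contactin proteins carry immunoglobulin domains, act without calcium, and guide axon growth, bundling and the assembly of the axon initial segment and nodes. In young cortical neurons these families take part in migration, axon outgrowth and the choice of synaptic partners.

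Intensities are the deposited linear values of 1 probe set per gene. They were analysed as log2(intensity + 16), so that fold changes of dim genes are understated, and probe sets of different genes bind with different efficiency, so that levels are not compared between genes. Array medians ran from 147 to 150 in the C1q group and from 150 to 155 in the untreated group. The neuronal markers Tubb3, Map2, Dcx, Stmn2, Snap25 and Rbfox3 were all tested and summed to between 32240 and 33728 on the C1q arrays and between 32096 and 34886 on the untreated arrays. The excitatory marker genes on the array, Neurod6 and Slc17a7, and the 4 inhibitory ones on the array were also above the filter. All 5 radial glia markers were above it too, with sums of 5386 to 5447 after C1q and 5387 to 5625 in untreated cultures. So were 4 of 5 astrocyte markers, all 3 oligodendrocyte-lineage markers on the array, 3 of 5 mural and meningeal markers and 1 of 4 endothelial markers. All 5 microglial markers and the endothelial cadherin Cdh5 lay below it. The filter, an intensity of 94.4, was itself below every array median, so passing it does not show that a cell type was present. Intensities ran from 43.2 to 493 for the astrocyte markers and from 120 to 313 for the oligodendrocyte-lineage ones. They ran from 5.64 to 271 for the mural and meningeal markers and from 31.7 to 148 for the endothelial ones. The part of other cell types in the values below was not tested.

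Of the 37 adhesion genes, 35 were bright enough to test, since the brightest 60% of probe sets by mean were kept, those at an intensity of 94.4 or more. None of the 35 was called as changed by C1q in limma (adjusted p = 0.9999 for every one of them), against 0 of 17529 probe sets, or 0%, called in all. At an unadjusted p under 0.05 there were 0 of the 35, where the share over all probe sets was 2.49%. The log2 fold changes of the 35 genes lay between -0.06 and 0.13. Their 95% intervals, not adjusted for the number of genes, lay within 1.25-fold in either direction for 34 of the 35 and within 1.2-fold for 32, and the widest reach was 1.28-fold, for Cntnap1. Over all 9652 genes tested, 90.8% had an interval within 1.25-fold. The residual SD between arrays of a group had a median of 0.0742 log2 for the adhesion genes and 0.0741 for all genes tested.

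**Figure D1:**
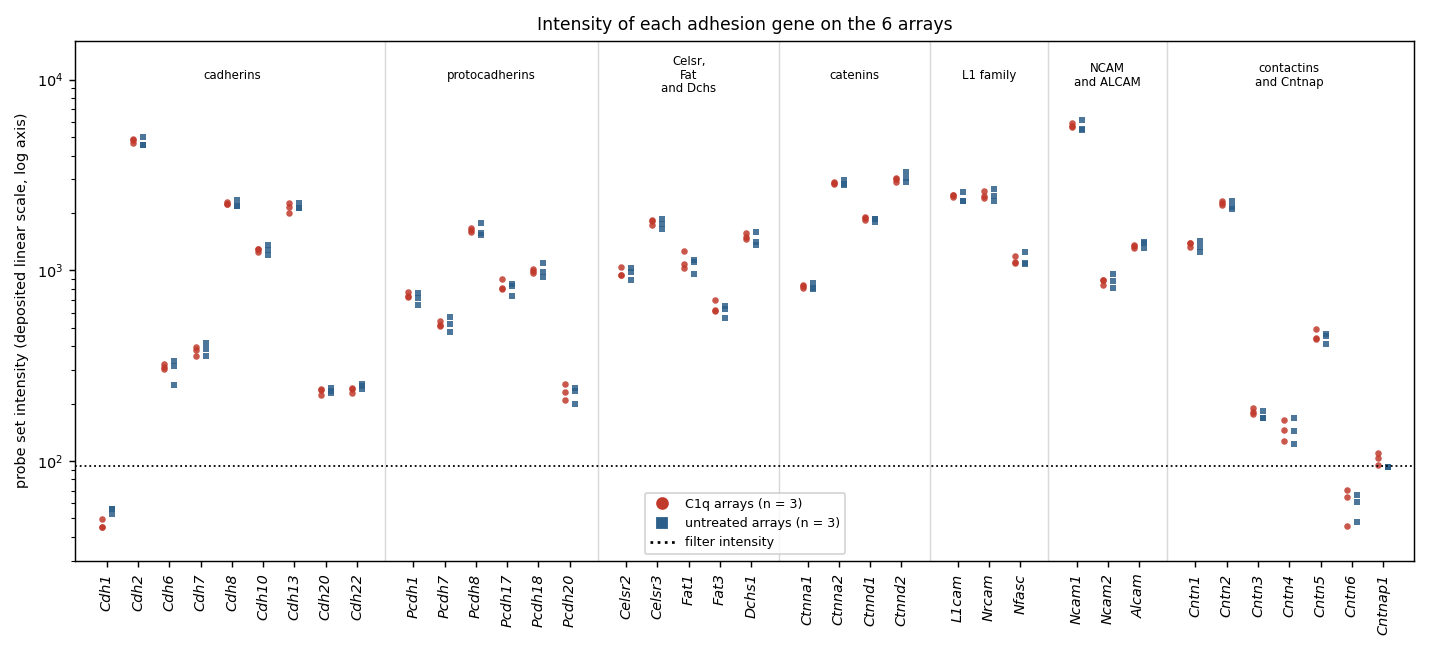
Intensity of the 37 adhesion genes on the array, on a log axis, by family. Each gene has 3 points for the C1q arrays on the left and 3 for the untreated arrays on the right, and the dotted line is the filter at 94.4. C1q and untreated points overlap for all but Cdh1 and Cntnap1, and Cdh1 and Cntn6 lie below the line.

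Among the cadherins, 8 of 9 genes on the array were tested and 0 passed. Cdh2 encodes N-cadherin, the classic type I cadherin of neural progenitors and neurons. Its probe set read 4856, 4832 and 4666 on the C1q arrays and 5020.0, 4543 and 4546 on the untreated arrays, with a mean of 4784 ± 103 against 4703 ± 275 (SD, n = 3 each). Untreated array 1 was above and untreated arrays 2 and 3 below all 3 C1q arrays, so that the C1q values fell inside the untreated range. The limma fold change was 1.02, with a 95% interval of 0.946 to 1.10.

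Cdh1, which encodes the epithelial E-cadherin, was below the filter and was not tested. It read 44.9, 44.8 and 49.5 after C1q and 56.0, 53.0 and 56.3 in untreated neurons. The C1q values were all lower, by a few intensity units near the bottom of the range, where the share of background is unknown. Cdh13 encodes T-cadherin, which is held in the membrane by a lipid anchor and has no cytoplasmic tail. Its values were 2153, 2241 and 2002 after C1q and 2243, 2113 and 2117 untreated, a fold change of 0.987 (95% interval 0.913 to 1.07). C1q array 3 was the lowest of the 6 and the groups overlapped.

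The other 6 cadherins tested, Cdh6, Cdh7, Cdh8, Cdh10, Cdh20 and Cdh22, are type II cadherins, whose combinations mark brain regions and neuron classes. Of these, Cdh22 and Cdh6 had the smallest unadjusted p of the family, at 0.458 and 0.559. Cdh22 read 242, 226 and 239 on C1q arrays against 252, 237 and 248 on untreated arrays, a fold change of 0.960 (95% interval 0.856 to 1.08). Cdh6 read 321, 311 and 302 on C1q arrays against 334, 251 and 316 on untreated arrays, a fold change of 1.04 (95% interval 0.898 to 1.21). For Cdh6 the difference came with a low reading on untreated array 2, and the other 5 arrays lay between 302 and 334. Cdh8 averaged 2236 ± 28.5 after C1q and 2231 ± 93.7 untreated (SD, n = 3 each), and Cdh10 averaged 1275 ± 25.7 after C1q and 1279 ± 71.9 untreated, with fold changes of 1.00 and 0.998. Cdh7 and Cdh20 had fold changes of 0.981 and 0.986. Across the family 3 means were higher after C1q and 5 lower, and under quantile normalization, as under median centring, 6 were higher and 2 lower, and without untreated array 2 only 1 was higher and 7 lower.

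Protocadherins had 6 genes on the array, all tested, and 0 passed. Pcdh1, Pcdh7 and Pcdh20 belong to the delta-1 group and Pcdh8, Pcdh17 and Pcdh18 to the delta-2 group, which is best known in the sorting of axons and the turnover of synaptic contacts. Pcdh1 had the smallest unadjusted p of the family, at 0.383. It read 721, 773 and 731 on the C1q arrays and 765, 713 and 661 on the untreated arrays, a fold change of 1.04 (95% interval 0.945 to 1.15). The lowest value was on untreated array 3 and untreated array 1 lay above C1q arrays 1 and 3. Pcdh17 read 905, 808 and 797 after C1q and 852, 729.5 and 827 untreated, a fold change of 1.04 (95% interval 0.935 to 1.16). Here C1q array 1 stood highest and untreated array 2 lowest, with the remaining 4 arrays between 797 and 852.

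Pcdh8, also called arcadlin and induced by activity in rat hippocampal neurons, averaged 1633 ± 40.6 after C1q and 1618 ± 125 untreated (SD, n = 3 each), a fold change of 1.01. Pcdh18 averaged 992 ± 25.4 after C1q and 1001 ± 89.0 untreated, and Pcdh7 523 ± 14.6 after C1q and 521 ± 46.8 untreated (SD, n = 3 each), with fold changes of 0.994 and 1.00. Pcdh20 had a fold change of 1.03 (95% interval 0.889 to 1.20). For Pcdh7, Pcdh8 and Pcdh18 the 3 C1q arrays lay inside the range of the untreated arrays. Of the 6 means 5 were higher after C1q and 1 lower, and all 6 were higher with either rescaling, but without untreated array 2 only 1 of 6 was higher.

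The large cadherins on the array were Celsr2, Celsr3, Fat1, Fat3 and Dchs1. All 5 were tested and 0 passed. Celsr2 and Celsr3 are adhesion G protein-coupled receptors of the planar polarity pathway, and Celsr3 is needed in mice for the main forebrain axon tracts. Fat1 and Fat3 are giant cadherins that act on actin and cell shape, and Dchs1 is the ligand that pairs with Fat4. The RefSeq promoter table (build GRCr8, 250 bases before to 50 after an annotated start, on the gene's strand) held 34 of the 49 genes. Only the exact sequences TTCAGCACC, TGACGTCA, TATAAA and CACGTG were searched for. The windows of Celsr3 and Fat1 are shown because they were the only members to hold TTCAGCACC or TGACGTCA. Other neuronal or activity-linked motifs were not searched for in any window. In the Celsr3 window, chr8:118408886-118409185 on the plus strand, the capitals mark TTCAGCACC, the left core of the element bound by the repressor REST, which starts 119 bases before the annotated start.
Celsr3: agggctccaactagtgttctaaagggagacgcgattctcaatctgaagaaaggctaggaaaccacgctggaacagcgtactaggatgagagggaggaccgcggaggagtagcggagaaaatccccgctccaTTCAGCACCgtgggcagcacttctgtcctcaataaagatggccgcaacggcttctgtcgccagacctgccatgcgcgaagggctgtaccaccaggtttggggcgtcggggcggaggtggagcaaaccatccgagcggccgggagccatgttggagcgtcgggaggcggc
In the Fat1 window, chr16:54028560-54028859 on the minus strand, the capitals mark the cyclic AMP response element TGACGTCA, which starts 231 bases before the annotated start.
Fat1: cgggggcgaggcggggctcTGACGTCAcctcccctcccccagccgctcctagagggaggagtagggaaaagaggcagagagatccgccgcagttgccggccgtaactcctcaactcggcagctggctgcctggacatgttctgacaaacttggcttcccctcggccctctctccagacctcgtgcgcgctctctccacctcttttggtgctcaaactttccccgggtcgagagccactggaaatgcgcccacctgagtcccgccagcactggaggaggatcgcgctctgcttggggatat
Both motifs were searched on both strands, and the full element bound by REST was not searched for. The REST core was held by 1 of 34 members against 0.356% of 33469 promoter windows, and the response element by 1 of 34 against 1.83%. Members were counted as genes, with a match in any window of the gene, and the background as single windows, so the shares differ in unit. TATAAA was held by 2 of 34, Ctnnd1 and Pcdh8, against 14.2%, and CACGTG by 0 of 34 against 6.42%. With 1 window taken per gene, the members held a median of 15 CpG dinucleotides, where the median of all windows was 7. The annotated start need not be the one used in these neurons.

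Fat3 had the smallest unadjusted p of the 5 genes, at 0.369. It read 696, 615 and 617 on C1q arrays and 653, 561 and 623 on untreated arrays, a fold change of 1.05 (95% interval 0.939 to 1.17). Dchs1 read 1575, 1497 and 1451 on C1q arrays and 1591, 1363 and 1405 on untreated arrays, a fold change of 1.04 (95% interval 0.946 to 1.14). For both genes untreated array 2 was the lowest of all 6. Untreated array 1 was above C1q arrays 2 and 3 for Fat3 and above all 3 C1q arrays for Dchs1. Celsr3, whose promoter is shown above, read 1837, 1817 and 1727 after C1q and 1856, 1654 and 1742 untreated, a fold change of 1.03 (95% interval 0.946 to 1.11). Celsr2 read 1044, 945 and 944 after C1q and 1029.5, 886 and 976 untreated, a fold change of 1.01. The C1q and untreated values of both Celsr genes overlapped over most of their range. Fat1, with the response element in its window, averaged 1121 ± 124 after C1q and 1067 ± 101 untreated (SD, n = 3 each), a fold change of 1.05 (95% interval 0.923 to 1.19). C1q array 1 was the highest of the 6 arrays for Fat1, Fat3 and Celsr2, and untreated array 2 was the lowest for all 5 genes. All 5 means were higher after C1q, as they were with either rescaling. Without untreated array 2 the balance was 2 higher to 3 lower, and without C1q array 1 it was 3 to 2.

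All 4 catenins were tested and 0 passed. Alpha-catenins link the cadherin complex to actin, Ctnna1 in most cells and Ctnna2 in neurons. Delta-catenins bind the cadherin tail near the membrane and hold cadherins at the surface, with Ctnnd1 encoding p120 and Ctnnd2 the neuronal form. Ctnna2 read 2877, 2919 and 2830.2 after C1q and 2983, 2823 and 2798 untreated, a fold change of 1.00 (95% interval 0.939 to 1.07). All 3 C1q values lay inside the untreated range. Ctnnd2 read 3043, 3029 and 2909 after C1q and 3292, 3035 and 2906 untreated, a fold change of 0.974 (95% interval 0.901 to 1.05). Here untreated array 1 stood above the other 5 arrays, and without it the fold change was 1.01. Ctnnd1 read 1835, 1904 and 1884 after C1q and 1848, 1782 and 1852 untreated, a fold change of 1.03 (95% interval 0.960 to 1.10). Ctnna1 averaged 825 ± 11.5 after C1q and 819.9 ± 30.7 untreated (SD, n = 3 each), a fold change of 1.01. Of the 4 means 3 were higher after C1q and with either rescaling, and 1 of 4 was without untreated array 2. The limits for the 4 catenins lay between 0.901 and 1.10.

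In the L1 family, L1cam, Nrcam and Nfasc were tested and 0 passed. L1cam promotes axon growth and bundling, Nrcam acts in guidance and at the nodes of Ranvier, and Nfasc organises the axon initial segment and the nodes, all through tails that bind ankyrin. L1cam read 2490.1, 2496 and 2437 on the C1q arrays and 2571, 2307 and 2319 on the untreated arrays, with a mean of 2474 ± 32.7 against 2399 ± 149 (SD, n = 3 each). The 3 C1q arrays lay close together between the high untreated array 1 and the low untreated arrays 2 and 3. The fold change was 1.03, (95% interval 0.957 to 1.11) and an unadjusted p of 0.378 by limma, fitted across all probe sets. Nrcam read 2602, 2466 and 2392 after C1q and 2668, 2315 and 2444 untreated, a fold change of 1.01 (95% interval 0.922 to 1.10). Nfasc read 1111, 1188 and 1098 after C1q and 1249.7, 1094 and 1077 untreated, a fold change of 0.995 (95% interval 0.904 to 1.10). In both genes the C1q and untreated values were intermixed, and untreated array 1 was the highest. Of the 3 means 2 were higher and 1 lower, and all 3 were higher with either rescaling, against 1 of 3 without untreated array 2.

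Ncam1, Ncam2 and Alcam were tested and 0 passed. NCAM is the main carrier of polysialic acid, which loosens contacts between young neurons, Ncam2 encodes its close relative in olfactory and cortical axons, and Alcam supports growth of axons in bundles. Ncam1 read 5931, 5724 and 5661 on C1q arrays and 6159, 5456 and 5480.1 on untreated arrays, a mean of 5772 ± 141 against 5698 ± 399 (SD, n = 3 each). As for L1cam and Cdh2, the C1q values lay between untreated array 1 and the other untreated arrays. The fold change was 1.01 (95% interval 0.938 to 1.10). Alcam read 1344, 1356 and 1312 after C1q and 1409, 1311 and 1385 untreated, a fold change of 0.978 (95% interval 0.909 to 1.05). Ncam2 averaged 871 ± 31.9 after C1q and 879.5 ± 77.5 untreated (SD, n = 3 each), a fold change of 0.992. Only 1 of the 3 means, that of Ncam1, was higher after C1q, and 2 of the 3 were higher with either rescaling and 0 of 3 without untreated array 2.

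Contactins are anchored by a lipid to the outer membrane and partner with L1 and Cntnap proteins on the axon. Of 7 genes of this kind on the array 6 were tested and 0 passed. Cntnap1 encodes Caspr, the partner of contactin-1 at the paranodal junction with myelinating glia. It read 104, 111 and 95.8 on the C1q arrays and 92.6, 92.9 and 93.3 on the untreated arrays, with a mean of 103 ± 7.38 against 92.9 ± 0.364 (SD, n = 3 each). Every C1q value was above every untreated value, which made it the 1 gene of the 35 whose groups did not overlap, against 5.72% of all probe sets tested (4.96% of genes), made up of 1.30% with C1q higher and 4.42% with C1q lower. All 3 untreated values lay under the filter of 94.4 and all 3 C1q values above it, so the gene was tested only through the group in which it read higher, and its separation is given as a description. The untreated values differed by less than 1 unit, and the C1q values were spread more widely. Its fold change was 1.09, (95% interval 0.936 to 1.28), an unadjusted p of 0.232 and an adjusted p of 0.9999 in limma.

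Cntn2 encodes TAG-1, an axonal contactin of early projection neurons. It read 2302, 2256 and 2189 after C1q and 2315, 2092 and 2142 untreated, a fold change of 1.03 (95% interval 0.956 to 1.11). Cntn1, which encodes contactin-1, read 1385, 1388 and 1323 after C1q and 1416, 1244 and 1331 untreated, a fold change of 1.03 (95% interval 0.944 to 1.12). In both, untreated array 1 was the highest of the 6 and untreated array 2 the lowest. Cntn3, Cntn4 and Cntn5 are contactins of more restricted neuron groups and had fold changes of 1.04, 1.01 and 1.03. Cntn4 had the widest interval of the 35 genes, reading 145, 165 and 127 after C1q and 167, 123 and 143 untreated, with limits of 0.834 to 1.21. Cntn6, below the filter, read 64.4, 70.7 and 45.5 after C1q and 66.7, 48.0 and 60.6 untreated. The values of both genes were spread nearly as widely within each group as over all 6 arrays. All 6 means tested were higher after C1q and with either rescaling, and 3 of 6 were without untreated array 2.

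**Figure D2:**
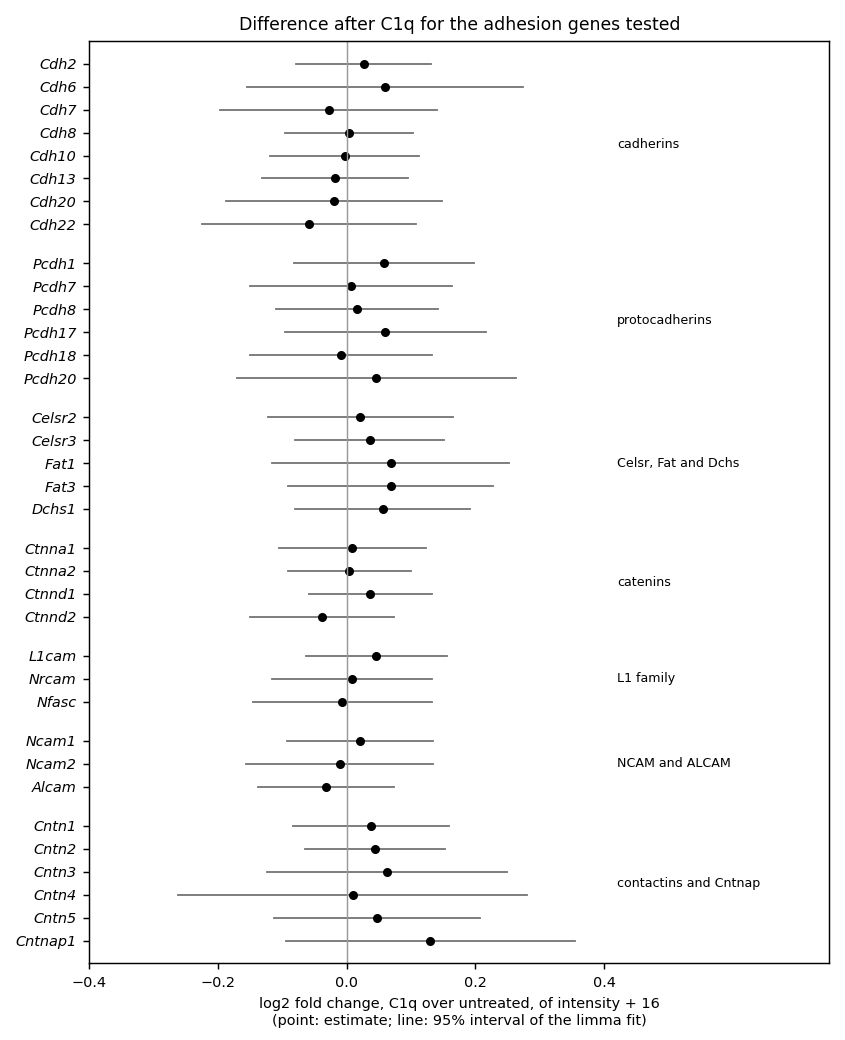
Log2 fold change of intensity + 16, C1q over untreated, for the 35 adhesion genes tested, by family. Points are limma estimates and lines are 95% intervals, not adjusted for the number of genes. Every interval crosses 0, and the estimates run from -0.06 for Cdh22 to 0.13 for Cntnap1.

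Of the 35 genes, 25 had a higher mean after C1q and 10 a lower one, or 71.4% higher, where 37.0% of all 9652 genes tested had a higher mean. The median log2 fold change was 0.02 for the adhesion genes and -0.02 for all genes tested. After quantile normalization or median centring 31 were higher and 4 lower, with 53.1% and 59.0% of all genes higher. The adhesion genes tended to vary together, so their means are not 35 separate observations. A gene's median correlation with the other members ran from 0.189 for Cdh22 to 0.846 for Celsr3. No such values are given for other genes, so joint variation is not shown to be particular to the adhesion genes. The count of higher means depended on which arrays were kept. Without C1q array 2 it was 19 of 35, with 30.6% of all genes higher, and without untreated array 3 it was 20 of 35, with 35.7% of all genes higher. It moved most with untreated array 2. Of the 35 genes 25 were lowest of the 6 arrays there, against 33.5% of all genes tested and 38.4% of the non-adhesion genes above the median intensity of the genes tested. Without that array 9 of 35 were higher and 26 lower, with 27.9% of all genes higher, and the median log2 fold change was -0.01 for the adhesion genes and -0.04 for all genes tested. The median of the adhesion genes lay above that of all genes tested by 0.036 with all 6 arrays and by 0.025 without untreated array 2. With any 1 array left out this distance ran between 0.022 and 0.063, all on the log2 scale. Cntnap1, which passed the filter only through its C1q values, then had every C1q value above both remaining untreated values, as did 4.27% of probe sets, and 2 genes, Cdh22 and Alcam, had every C1q value below both, as did 20.5% of probe sets.

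Untreated array 1 stood on the opposite side. It gave the highest value for 24 of the 35 genes, against 46.8% of all genes tested and 59.3% of the non-adhesion genes above the median intensity of the genes tested. The exceptions were Pcdh17, Pcdh20, Celsr2, Fat1 and Fat3, which were highest on C1q array 1, Pcdh1, Ctnnd1, Cntn3, Cntn5 and Cntnap1, which were highest on C1q array 2, and Cdh20, which was highest on untreated array 3. Without untreated array 1, 32 of the 35 means were higher after C1q, with 55.3% of all genes higher, and 13 genes had every C1q value above both remaining untreated values, where 9.46% of probe sets did. None of the 35 had every C1q value below both, where 8.41% of probe sets did. Those 13, with Cntnap1 again among them, were Cdh2, Cdh8, Pcdh1, Pcdh8, Dchs1, Ctnna1, Ctnna2, L1cam, Ncam1, Nfasc, Cntn2, Cntn3 and Cntnap1, and 0 of them passed, with an adjusted p of 0.9999 by limma for each and folds of 1.02 for Ctnna2 to 1.09 for Cntnap1. The untreated group held the highest and the lowest array for most adhesion genes, and its SD was larger than that of the C1q group for 29 of the 35 genes. The SDs were not counted over all genes tested. Those genes also lay high on untreated array 1, at a median deviation of 0.059 log2, and low on untreated array 2, at -0.036. A cause of the distance between untreated arrays 1 and 2 was not tested.

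**Figure D3:**
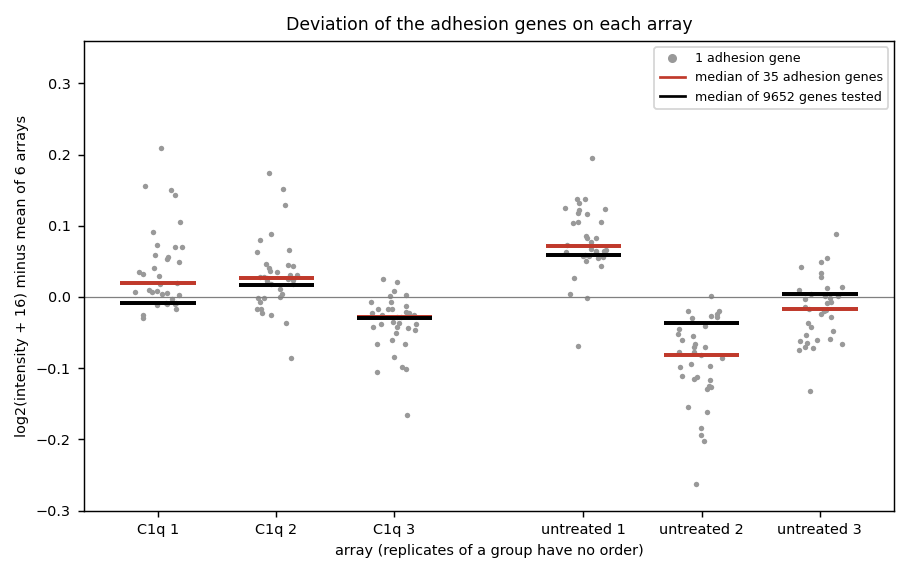
Deviation of log2(intensity + 16) from the mean of the 6 arrays on each array, for the 35 adhesion genes tested (grey points). Red bars are their medians and black bars the medians of 9652 genes tested. The adhesion genes lie high on untreated array 1, at a median of 0.07, and low on untreated array 2, at -0.08, while their C1q medians lie between -0.03 and 0.03.

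A fit with array weights rested mostly on untreated array 3, with a weight of 5.51 against 0.362 and 0.335 for untreated arrays 1 and 2. It called 0 of the 35 adhesion genes and 447 probe sets in all, or 2.55%. At an unadjusted p under 0.05 it gave 6 of the 35, namely Pcdh1, Dchs1, L1cam, Ncam1, Cntn2 and Cdh2, all with a higher mean after C1q. Over all probe sets 20.6% were under it in that fit, and 6.65% were under it with C1q higher. Pcdh1 had a fold change of 1.10 there and the smallest adjusted p of the set, 0.123. Their folds ran from 1.05 for Cdh2 to that of Pcdh1.

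**Figure D4:**
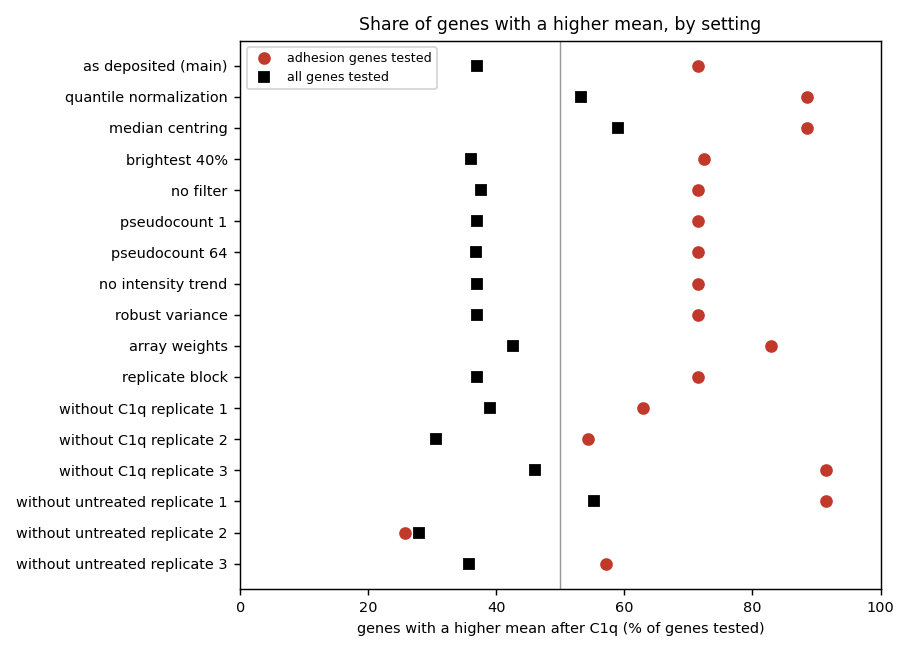
Share of genes with a higher mean after C1q under each way of processing, for the adhesion genes tested (red circles) and all genes tested (black squares), in percent. The adhesion share was 71.4% as deposited, ran between 54.3% and 91.4% in every other setting but 1, and was 25.7% without untreated array 2.

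Genes that work with these adhesion molecules were listed by role, with 54 symbols, of which 49 were on the array and 47 tested. None passed in limma, with 23 means higher after C1q and 24 lower. Quantile normalization gave 31 higher and 16 lower, median centring 37 and 10, and the fit without untreated array 2 gave 9 and 38. Among adaptors, beta-catenin (Ctnnb1) averaged 3401 ± 52.0 after C1q and 3457 ± 197 untreated (SD, n = 3 each), and the nectin gene Nectin1 had a fold change of 1.02. Among the ankyrins and spectrins that hold L1 proteins in place, fold changes were 1.04 for Ank2 and 0.981 for Sptbn1. Gap43, a growth cone protein downstream of NCAM and L1 signals, averaged 4363 ± 161 after C1q and 4555 ± 150.0 untreated (SD, n = 3 each), and Ptprz1, a phosphatase that binds contactin-1, had a fold change of 1.02.

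Both enzymes that build polysialic acid on NCAM were tested, with fold changes of 1.01 for St8sia2 and 1.00 for St8sia4. The shedding protease gene Adam17 had a fold change of 0.952. In the WAVE complex, which delta-2 protocadherins recruit, Cyfip1 and Abi1 had fold changes of 1.01 and 0.985. Among planar polarity genes Dvl1 had 1.02, and Fjx1, whose fly relative is a kinase that modifies Fat and Dachsous, averaged 2583 ± 45.9 after C1q and 2774 ± 245 untreated (SD, n = 3 each), a fold change of 0.934 (95% interval 0.854 to 1.02). Other adhesion genes included Nptn, of the immunoglobulin superfamily, at 0.962 and Cntnap4, which encodes a contactin-associated protein, at 1.03. The log2 fold changes of the 47 genes lay between -0.10 and 0.06.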

How the data were processed

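Per the labels' protocols, total RNA was isolated with the RNeasy kit and labelled as biotinylated cRNA by Affymetrix's standard procedure. The authors deposited 1 linear intensity for each of 29215 probe sets on each of 6 arrays, with a summarisation and normalization not given in the sources used here. All 6 columns entered the analysis, without detection calls or background levels. Gene names came from the platform annotation through gene identifiers and RefSeq symbols (GRCr8). Exactly 1 gene was named for 15310 probe sets, and a gene with several took the probe set of highest mean. Each adhesion gene on the array had 1. Values were analysed as log2(intensity + 16). Array medians differed by 0.070 log2 at most, under a limit of 0.1, so no rescaling was applied. The brightest 60% of probe sets (17529) were tested by lmFit and eBayes, allowing an intensity trend (limma 3.58.1, R 4.3.3), with Benjamini-Hochberg adjustment over all of them and calls under 0.05. The procedure was also run on simulated data, with added changes larger than any estimate for an adhesion gene. That run does not show whether changes of the size seen here could be called. Precision is limited by the number of arrays. The genes and lists were chosen with earlier results of these data known. Values on every array are given for genes picked by role, for the 2 genes of smallest unadjusted p in each family and for genes whose groups did not overlap, and partner genes are named by smallest unadjusted p in each direction of their list. Alternatives covered scaling, filter, pseudocount, array weights, the variance model, a replicate block, averaging over probe sets and leaving out each array.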

Additional observations from a re-analysis of the deposited data

How the results depend on the processing

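None of the 35 adhesion genes above the filter was called under any of the 17 alternatives, with 29 tested in the brightest 40% and 35 in the others. Cdh1 and Cntn6 were not read out in the fit without the filter, so whether either was called there is not known. Averaging over probe sets, 1 of the 17, repeated the main fit, because each adhesion gene on the array had only 1 probe set. It could not give another result for these genes and is no separate check. Over all probe sets the number called was 1 without the filter, 447 with array weights and 9 with the replicate number as a block, and it ran from 0 to 38 with each array left out, with 38 reached without untreated array 2. The replicate block changed no call of an adhesion gene. Same-numbered arrays did not deviate together, with correlations of 0.014, -0.453 and -0.134 across probe sets for numbers 1 to 3, so the numbers were not taken as pairs. Between arrays of different numbers the correlations ran from -0.371 (C1q array 3 with untreated array 1) to 0.452 (C1q array 3 with untreated array 2). A cause of these was not tested. The count of adhesion genes whose groups did not overlap was 3 of 35 with quantile normalization, where 7.52% of all probe sets tested did not overlap, and 0 of the 29 left in the brightest 40%, where 4.98% did not. With each array left out it ran from 1 to 13 (13 without untreated array 1, 3 without untreated array 2 and 2 without C1q array 1, where 3133, 4337 and 2110 of 17529 probe sets did not overlap), and fewer arrays make separation easier. The count with a higher mean ran from 9 (without untreated array 2) to 32 with each array left out. The sign held for 11 of the 35 genes in every alternative that tested them, which for Cdh22, Cntn3 and Cntnap1 leaves out the brightest 40%, and turned in at least 1 for 24. The filter, variance model, replicate block and mean of probe sets leave a gene's estimate unchanged, so those alternatives could not turn a sign. Signal over background is unknown, which limits what can be read from genes near or below the filter, Cdh1, Cntn6 and Cntnap1.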

Other observations

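Several of these genes are neighbours in the GRCr8 annotation. Cntn2 and Nfasc have no other protein-coding gene between them, and their fold changes after C1q were 1.03 and 0.995. Cntn3, Chl1, Cntn6 and Cntn4 follow each other in 1 run. The 2 tested genes of that run, Cntn3 and Cntn4, had fold changes of 1.04 and 1.01. Cdh10, Cdh12 and Cdh18 also lie side by side, and only Cdh10 of these was measured, at 0.998. Pcdh17 and Pcdh20, with 3 protein-coding genes between them, were both highest on C1q array 1 and both lowest on untreated array 2. Pcdh8, with 3 protein-coding genes between it and Pcdh17, was highest on untreated array 1 and also lowest on untreated array 2. Celsr2, Fat1 and Fat3, on other chromosomes, were likewise highest on C1q array 1 and lowest on untreated array 2. Of the 35 adhesion genes tested, 5 were highest on C1q array 1, against 6.42% of all genes tested. On untreated array 2, 25 of the 35 were lowest, against 33.5% of all genes tested. These comparisons of neighbours are a description over 6 arrays with no test.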
